A study of Mus musculus with 8 samples.

Results

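The gut hormones that act on appetite were examined as a group of 9 genes among the 38920 rows measured in each library. They are the peptide hormone genes Ghrl, Nucb2, Gcg, Pyy, Cck, Nts, Gip and Calca, together with Mboat4, which encodes the enzyme that acylates ghrelin. The members were taken by gene symbol, and all 9 had a row in every library. The rows were tested where at least 4 of the 8 libraries had a value above 0, which 8 of the 9 members and 27401 rows in all did. Nts missed this filter. RNA was measured in sorted epithelial cells of the stomach from mice of the strain C57BL/6, with 4 libraries from mice on a high fat diet (HFD22, HFD23, HFD26 and HFD27) and 4 titled ND, which the labels do not spell out and which were read as the control mice (ND15.17.18, ND16, ND19 and ND20). The sources used here give neither age nor sex, neither the composition nor the length of the diet, and no detail of the sort. The comparison of HFD with ND libraries asks how the diet goes with expression in these cells.

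Ghrelin is made by X/A-like endocrine cells of the oxyntic mucosa, circulates in fasting and stimulates food intake through the receptor Ghsr. It needs a fatty acid on one serine, added by the acyltransferase encoded by Mboat4, to activate that receptor. Nesfatin-1, cut from the product of Nucb2, lowers food intake in rodents and has been found in ghrelin cells. Peptide YY (Pyy), cholecystokinin (Cck), neurotensin (Nts), the glucagon-like peptides (Gcg) and the incretin Gip come mainly from endocrine cells of the intestine, and Calca encodes calcitonin and the sensory nerve peptide CGRP.

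Upstream sequences are shown for Ghrl, the member with the highest level per length, and for Nucb2 and Calca, the members whose HFD and ND values did not overlap. Each is the 250 bases before a start site on the gene's own strand, from RefSeq on GRCm38.p6, the assembly also called mm10. Capitals mark the E-box, spelled CANNTG, to which basic helix-loop-helix factors such as Neurod1 and Neurog3 bind, and the TATA box, spelled TATAAA or TTTATA.
Ghrl, chr6:113719912-113720161, minus strand: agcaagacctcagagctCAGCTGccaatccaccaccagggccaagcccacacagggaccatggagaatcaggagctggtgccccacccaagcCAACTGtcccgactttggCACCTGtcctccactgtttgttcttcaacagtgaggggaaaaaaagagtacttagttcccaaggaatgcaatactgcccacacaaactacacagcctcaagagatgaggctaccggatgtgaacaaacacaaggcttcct
Nucb2, chr7:116504119-116504368, plus strand: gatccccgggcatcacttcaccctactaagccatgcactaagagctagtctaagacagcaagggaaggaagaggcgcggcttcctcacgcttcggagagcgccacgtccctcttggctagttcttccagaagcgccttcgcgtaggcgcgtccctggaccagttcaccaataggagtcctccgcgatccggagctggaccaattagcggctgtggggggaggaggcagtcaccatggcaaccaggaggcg
Calca, chr7:114636358-114636607, minus strand: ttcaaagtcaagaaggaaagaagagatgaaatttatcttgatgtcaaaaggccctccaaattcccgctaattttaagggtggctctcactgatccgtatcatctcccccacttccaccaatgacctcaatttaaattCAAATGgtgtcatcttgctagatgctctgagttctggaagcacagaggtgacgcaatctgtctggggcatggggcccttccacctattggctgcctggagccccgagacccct
The Ghrl window held 3 E-boxes, the Calca window 1 and the Nucb2 window 0. Of 32851 RefSeq windows of this length, 66.2% held at least 1 E-box. None of these 3 windows held a TATA box, found in 12.4% of all windows. Each held 1 CACCC box (CACCC or GGGTG), the motif of Kruppel-like factors, found in 52.0% of all windows. RefSeq lists 4 start sites for Ghrl, and the window shown lies before the one farthest upstream, at base 113719911. The Calca and Nucb2 windows lie before start sites at bases 114636357 and 116504369. Both sites fall inside the RefSeq spans of these genes, which begin farther upstream. RefSeq promoter sequences were matched for 8 of the 9 members; for Mboat4 none was used.

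The libraries had estimated depths of 31.4 to 46.0 M reads in HFD and 16.4 to 63.2 M reads in ND. Of the 15 gastric epithelial markers all were above 0 in every library, and so were 8 smooth muscle markers. Among the epithelial ones 3 were higher in HFD (Epcam, Pgc and Cblif) and 2 lower (Cdh1 and Muc5ac) at an unadjusted p under 0.05, with 0 past the adjusted threshold of limma. Of all rows, 6.52% were higher and 10.6% differed in either direction at that unadjusted p. Epcam, an epithelial adhesion gene, was at 12.38 ± 0.12 in HFD and 11.70 ± 0.27 in ND, without overlap (SD, n = 4 each). Cdh1, also an adhesion gene, went the other way, at 14.44 ± 0.13 in HFD and 14.86 ± 0.19 in ND, without overlap. Cblif of chief cells differed by 1.46 ± 0.33 and Muc5ac of pit cells by -1.61 ± 0.35 (SE), also without overlap. Of the 15 markers 2 were higher and 2 lower in HFD without overlap, against 4.76% and 3.09% of all rows. Acta2, an actin of smooth muscle, was at 9.87 ± 0.17 in HFD and 7.82 ± 0.97 in ND (SD, n = 4 each). The ND15.17.18 library stood apart, with 83.4% of its total in the 20 largest rows. A read in it weighs about 0.69 deposited units, and its scaling factor was 0.206, against 0.793 to 1.59 in the other 7. A deposited 0 can therefore stand for a scaled level of up to 2.55 there and up to 1.18 or less elsewhere, and 3 reads would stand at 3.47 in ND15.17.18, 3.25 in ND19 and 1.32 to 1.81 in the other 6. HFD23 had the lowest rank correlations with the other libraries, 0.845 to 0.896. Levels below are log2(value + 1) after median-ratio scaling, so differences are relative to the typical row, and tested members are given with the fit of limma across all 27401 rows. The median row differed by 0.12 between HFD and ND after this scaling, against 0.90 as deposited.

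No member passed the threshold of an adjusted p of 0.05 in limma after Benjamini-Hochberg adjustment, against 3 of all rows tested (0.0109%). As deposited, 0 members passed, against 16 of all rows (0.0584%). At an unadjusted p under 0.05, 3 of the 8 tested members, Nucb2, Calca and Pyy, were higher in HFD and 0 were lower, against 6.52% of all rows higher. All 4 HFD libraries lay above all 4 ND libraries for 2 members, Nucb2 and Calca, against 4.76% of all rows, and the reverse held for 0 members, against 3.09% of all rows. Of the 8 tested members 7 had a positive difference, against 60.1% of all rows, and their median difference was 0.82, against 0.12 for all rows. This summary leaned on ND15.17.18. Without that library the differences were 0.05 for Ghrl, 0.10 for Mboat4, 0.94 for Nucb2, 2.32 for Pyy and 2.25 for Calca. Those of Gcg, Cck and Gip were then negative, at -0.10, -0.065 and -0.47, and the median of all rows was 0.092. These are bulk libraries, so a change in the share of endocrine cells and a change in RNA per cell cannot be told apart.

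**Figure D1:**
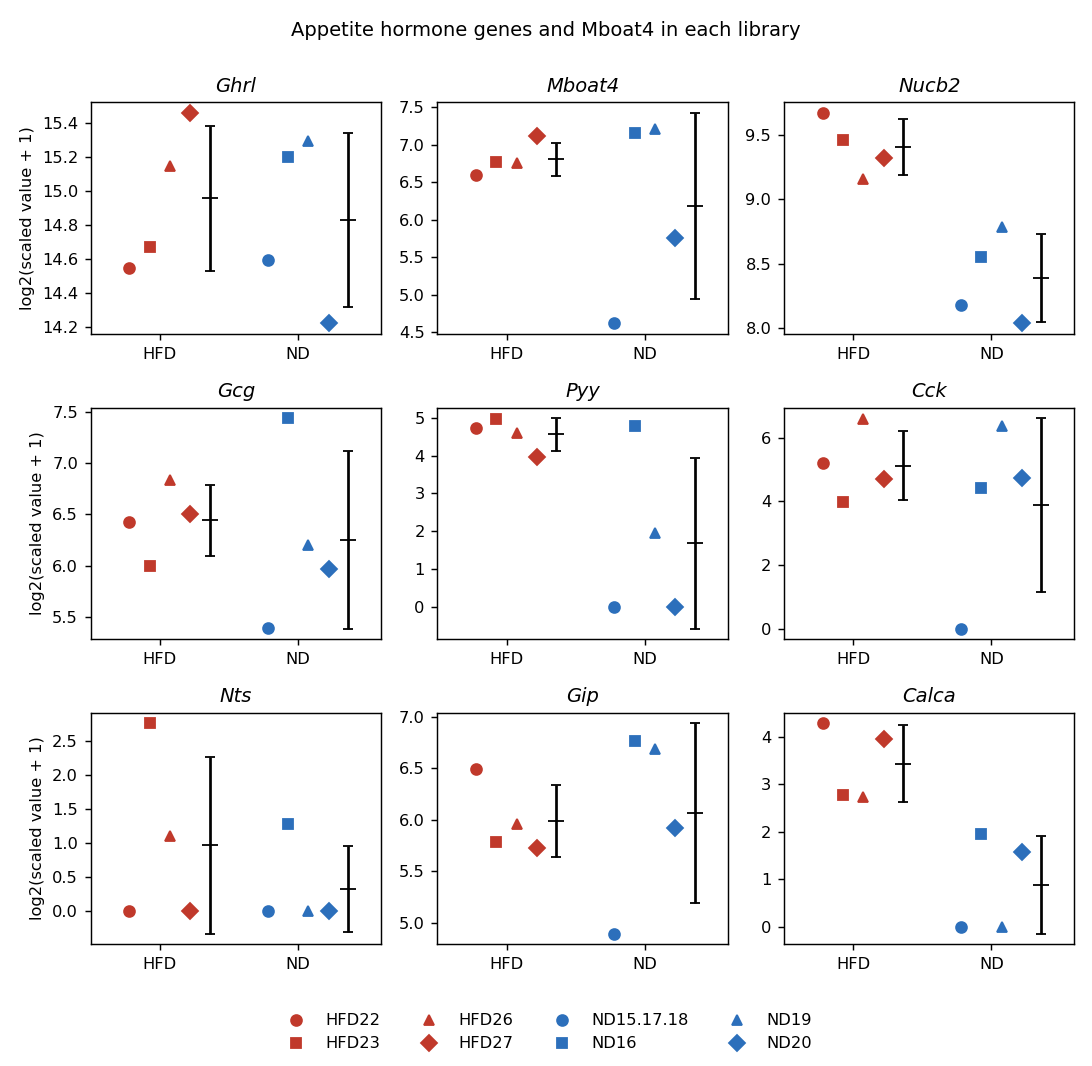
Level of each gene in each library, as log2(scaled value + 1), with HFD libraries in red and ND libraries in blue; the black bar gives the mean and SD of the 4 libraries. Nucb2 and Calca separate the groups, Ghrl and Gip do not, and ND15.17.18 is the lowest or joint lowest library for Mboat4, Gcg, Pyy, Cck, Gip and Calca.

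Ghrl differed little between the diets, relative to its spread between libraries. Ghrl (Gene ID 58991, chromosome 6, 113716119 to 113719911) was at 14.54, 14.67, 15.15 and 15.46 in HFD22, HFD23, HFD26 and HFD27. In ND15.17.18, ND16, ND19 and ND20 it was at 14.59, 15.20, 15.30 and 14.22. The groups overlapped widely, and the lowest and second highest libraries were both ND. Its difference was 0.13 ± 0.28 (SE, log2), a fold of 1.09 with a 95% interval from 0.706 to 1.69 (limma adjusted p = 0.88). At least 7349 reads lay behind each library's value. The sign of its difference turned without HFD27 (-0.040) or ND20 (-0.074). On the deposited scale the difference was 0.98 ± 0.76 (SE), with a 95% interval from -0.51 to 2.48.

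Mboat4, the ghrelin O-acyltransferase gene (Gene ID 234155, chromosome 8, 34106712 to 34125185), was at 6.60, 6.77, 6.76 and 7.12 in HFD22, HFD23, HFD26 and HFD27. In ND15.17.18, ND16, ND19 and ND20 it was at 4.62, 7.16, 7.20 and 5.75. The 4 HFD libraries were tightly grouped between the lower and the higher pair of ND libraries. The difference was 0.63 ± 0.54 (SE, log2; limma adjusted p = 0.68), and 0.10 without ND15.17.18, where 7 reads lay behind the value. Relative to Ghrl in the same library, Mboat4 stood at -8.15 ± 0.26 in HFD and -8.64 ± 0.91 in ND (SD, n = 4 each). That difference of 0.50 was within the spread (exact two-sided permutation p = 0.40, 0.60 adjusted over the 2 ratios tested) and was 0.053 without ND15.17.18. RefSeq places Dctn6 and other genes across parts of Mboat4, and whether counting used strand is not given in the sources used here, so reads in the overlaps cannot be assigned with certainty.

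The genes most like Ghrl over the libraries were chosen for that likeness, so their closeness is a description. By the likeness rule, the root mean square difference of centred values over the 8 libraries, the closest of 15274 compared genes was Pcsk1, a prohormone convertase of endocrine cells, at 0.16. It was followed by Sst, the somatostatin gene of D cells, at 0.18, the predicted genes Gm10033 and Gm11787 at 0.20 each, and Pcsk2, a second prohormone convertase, at 0.20. Ghrl's own values had a root mean square of 0.41 around their mean, and the median over the compared genes was 0.51. Ghrl, Sst, Pcsk1 and Pcsk2 were all lowest in ND20 among the 8 libraries. Not all endocrine markers had this profile. Chgb, a granin like Chga, was highest in ND15.17.18 (9.91) and lowest in ND16 (7.71), where Ghrl was at 14.59 and 15.20. Relative to the mean of 8 pan-endocrine markers in the same library, Ghrl stood at 6.11 ± 0.46 in HFD and 6.26 ± 0.24 in ND (SD, n = 4 each). The difference of -0.15 was within the spread (exact two-sided permutation p = 0.60, also 0.60 adjusted over the 2 ratios). It was -0.00077 without Rimbp2, a marker at 14.14 in HFD23 and 7.80 to 8.90 in the other libraries. Chga, the chromogranin A gene, was at 14.21 ± 0.39 in HFD and 14.65 ± 0.58 in ND (SD, n = 4 each), and against Chga alone Ghrl differed by 0.56 (exact permutation p = 0.17).

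**Figure D2:**
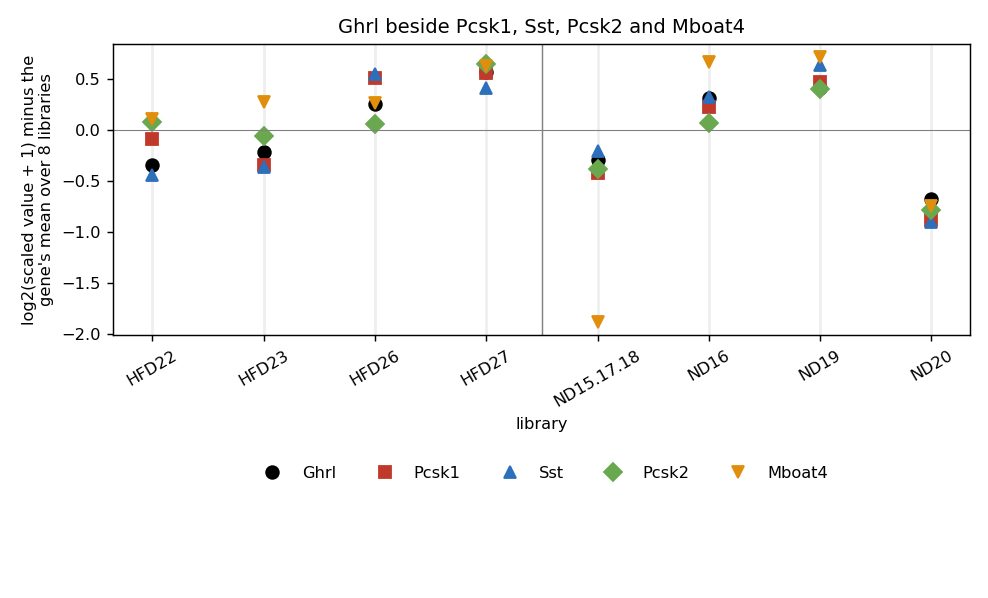
Level of Ghrl, Pcsk1, Sst, Pcsk2 and Mboat4 in each library, as log2(scaled value + 1) minus the gene's mean over the 8 libraries, with HFD libraries to the left of the grey line. Pcsk1, Sst and Pcsk2 were picked for their likeness to Ghrl; all 4 are lowest in ND20, and Mboat4 lies far below them in ND15.17.18.

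Nucb2 was the member with the smallest p, about 2.02-fold higher in HFD without passing the threshold. Nucb2 (Gene ID 53322, chromosome 7, 116504352 to 116540588) encodes nucleobindin 2, a calcium-binding protein of the secretory pathway and the precursor of nesfatin-1. It was at 9.67, 9.46, 9.16 and 9.32 in HFD22, HFD23, HFD26 and HFD27. In ND15.17.18, ND16, ND19 and ND20 it was at 8.18, 8.55, 8.78 and 8.04. Every HFD library lay above every ND library, with HFD26 the lowest of HFD and ND19 the highest of ND. The difference was 1.01 ± 0.19 (SE, log2), with a 95% interval of the fold from 1.5 to 2.72 (limma adjusted p = 0.17; unadjusted p = 0.00039; exact two-sided permutation p = 0.029, the smallest that 4 against 4 libraries can give). It kept its sign in all 8 fits that left out 1 library, from 0.90 to 1.15, and in none of them passed (adjusted p from 0.14 to 0.52). On the deposited scale it was 1.87 ± 0.74 (SE; limma adjusted p = 0.40). Its paralog Nucb1, nucleobindin 1, was at 11.81 ± 0.22 in HFD and 12.00 ± 0.25 in ND (SD, n = 4 each), a difference of -0.19 ± 0.15 (SE; limma adjusted p = 0.67).

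Nucb2 is made in many cell types, and markers of several were higher in HFD at an unadjusted p under 0.05. The summed level of 8 smooth muscle markers ran from 11.85 to 12.41 in HFD and from 10.38 to 11.49 in ND. All 4 HFD libraries lay above all 4 ND libraries for 7 of the 8, against 4.76% of all rows. The sum of 8 forestomach markers ran from 11.22 to 12.40 in HFD and from 7.05 to 11.34 in ND, with ND15.17.18 and ND16 lowest. Pancreatic acinar markers summed to 16.78 to 17.47 in HFD and 15.46 to 16.68 in ND, nearly all of it from the colipase gene Clps. Besides Clps, Cel was at 10.29 ± 0.18 in HFD and 10.71 ± 0.74 in ND (SD, n = 4 each). Prss2 was at 4.43 ± 0.37 in HFD and 2.38 ± 1.62 in ND, and Cpa1 was listed at 0 in 4 of the 8 libraries. As a list the acinar markers were split, with 5 positive and 5 negative differences and a median of 0.09, against 0.12 for all rows. The chief cell gene Cblif was also higher without overlap, at 14.80 ± 0.30 in HFD and 13.34 ± 0.73 in ND (SD, n = 4 each). The part of these cells in the Nucb2 difference was not tested.

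Of the hormones that curb appetite, Pyy had a large difference, with ND libraries that ranged from 0 to the HFD level. Pyy (Gene ID 217212, chromosome 11, 102106676 to 102107832), the gene of peptide YY, was at 4.73, 4.98, 4.59 and 3.97 in HFD22, HFD23, HFD26 and HFD27. It was listed at 0 in ND15.17.18 and ND20, at 1.94 in ND19 and at 4.79 in ND16. ND16 lay within the HFD range and the other 3 ND libraries below it. About 20.2 to 40.3 reads lay behind the HFD values, 37.5 behind that of ND16 and 1 behind that of ND19. The difference was 2.88 ± 1.08 (SE, log2; limma adjusted p = 0.39; unadjusted p = 0.024), or 2.02 with each 0 taken as 1 unit, and 3.92 without ND16. The permutation test over libraries gave an exact two-sided p of 0.11. Among markers of the gastric antrum, Gast, the gastrin gene, was at 9.21, 10.46, 3.26 and 9.24 in the HFD libraries and at 4.62, 9.22, 5.85 and 2.0 in ND15.17.18, ND16, ND19 and ND20. ND16, high in Pyy, was thus also the ND library highest in Gast, while HFD26 was low in Gast and not in Pyy. Of 9 intestinal markers 8 had a positive difference, against 60.1% of all rows. An unadjusted p under 0.05 with a higher level in HFD was found for 3, against 6.52% of all rows. These were Fabp1 (1.76 ± 0.47, SE), Fabp2 (1.16 ± 0.37) and Alpi (0.78 ± 0.34). Of these, Fabp1 and Alpi did not overlap between groups, against 4.76% of all rows higher without overlap. The marker with a negative difference was Cdx2 (-0.74 ± 1.12, SE), highest in ND15.17.18 (6.52), where Pyy was listed at 0. Sis, the sucrase-isomaltase gene, was listed at 0 in ND15.17.18 and ND20, as was Pyy. It did not follow Pyy in ND19, where Sis had its highest level of the 8 libraries (3.63) and Pyy was at 1.94. The part of antral or intestinal tissue in the Pyy difference was not tested.

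Gcg, which encodes proglucagon (Gene ID 14526, chromosome 2, 62474530 to 62483653), was at 6.43, 6.00, 6.83 and 6.51 in HFD22, HFD23, HFD26 and HFD27. In ND15.17.18, ND16, ND19 and ND20 it was at 5.39, 7.44, 6.20 and 5.97. Both the highest and the lowest library were ND. The difference was 0.19 ± 0.43 (SE, log2; limma adjusted p = 0.88), and -0.10 without ND15.17.18. Among islet markers, Ins1 was listed at 0 in 5 of the 8 libraries and Ins2 in 6. The 10 islet markers summed to 10.14 to 10.77 in HFD and 9.64 to 10.43 in ND, and the part of islet tissue in the Gcg values was not tested.

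Gip (Gene ID 14607, chromosome 11, 96024532 to 96030831), the gene of glucose-dependent insulinotropic polypeptide, was at 6.49, 5.78, 5.96 and 5.73 in HFD22, HFD23, HFD26 and HFD27. In ND15.17.18, ND16, ND19 and ND20 it was at 4.89, 6.76, 6.69 and 5.92. It was the member with a negative difference, -0.08 ± 0.44 (SE, log2; limma adjusted p = 0.96), with a 95% interval of the fold from 0.477 to 1.88. The sign was opposite on the deposited scale (0.73) and when totals left out the 20 largest rows (0.16).

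Cck (Gene ID 12424, chromosome 9, 121489824 to 121495694), the cholecystokinin gene, was at 5.21, 3.99, 6.58 and 4.72 in HFD22, HFD23, HFD26 and HFD27. It was listed at 0 in ND15.17.18 and stood at 4.44, 6.38 and 4.75 in ND16, ND19 and ND20. The other 7 libraries ran from 3.99 to 6.58, with HFD and ND values mixed. The difference of 1.23 ± 1.24 (SE, log2; limma adjusted p = 0.73) was -0.065 without ND15.17.18. Nts (Gene ID 67405, chromosome 10, 102481756 to 102490418), the neurotensin gene, was listed at 0 in 5 of the 8 libraries. About 7 reads were seen in HFD23 and 2 each in HFD26 and ND16, so no difference was detectable at this depth. For Pyy, Cck and Gip, the sum of the 9 measured intestinal markers ran from 11.13 to 11.55 in HFD and from 10.70 to 11.40 in ND. Most of that sum came from Vil1, at 10.54 ± 0.34 in HFD and 10.39 ± 0.50 in ND (SD, n = 4 each). The part of intestinal cells in the Cck and Gip values was not tested.

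Calca (Gene ID 12310, chromosome 7, 114625981 to 114636910) was at 4.28, 2.76, 2.72 and 3.95 in HFD22, HFD23, HFD26 and HFD27. It was listed at 0 in ND15.17.18 and ND19 and stood at 1.95 in ND16 and 1.58 in ND20. The groups did not overlap, on about 7 to 22 reads in each HFD library and 4 reads each in ND16 and ND20. The levels that 3 reads would have in ND15.17.18 and ND19, 3.47 and 3.25, lay above 2 of the HFD values. The separation from those 2 libraries was therefore not firm on so few reads. The difference was 2.55 ± 0.76 (SE, log2; limma adjusted p = 0.30; unadjusted p = 0.0080; exact two-sided permutation p = 0.029), or 1.62 ± 0.59 (SE) with each 0 taken as 1 unit. Calcb, a close paralog whose reads could be shared with Calca, was at 2.32, 4.25, 3.67 and 3.33 in the HFD libraries and at 0, 0.78, 3.86 and 2.90 in ND15.17.18, ND16, ND19 and ND20; it was looked up after the values of Calca were seen. The sum of 10 nerve markers ran from 9.14 to 9.76 in HFD and from 8.52 to 10.09 in ND, and Elavl4, Uchl1 and Trpv1 were listed at 0 in ND15.17.18. Vip and Npy, peptide genes of enteric and other nerves, were at 1.90 ± 0.51 and 1.61 ± 0.32 in HFD and at 0.19 ± 0.39 and 0.32 ± 0.64 in ND (SD, n = 4 each; limma adjusted p = 0.33 and 0.46). These 2 genes have the smallest p of the other peptide hormones and are near the floor. In the HFD libraries 3 reads would stand at 1.44 to 1.81, and a 0 in ND15.17.18 can stand for up to 2.55. Of the 10 nerve markers 0 had an unadjusted p under 0.05, against 10.6% of all rows in either direction. The part of nerve RNA in the Calca difference was not tested.

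**Figure D3:**
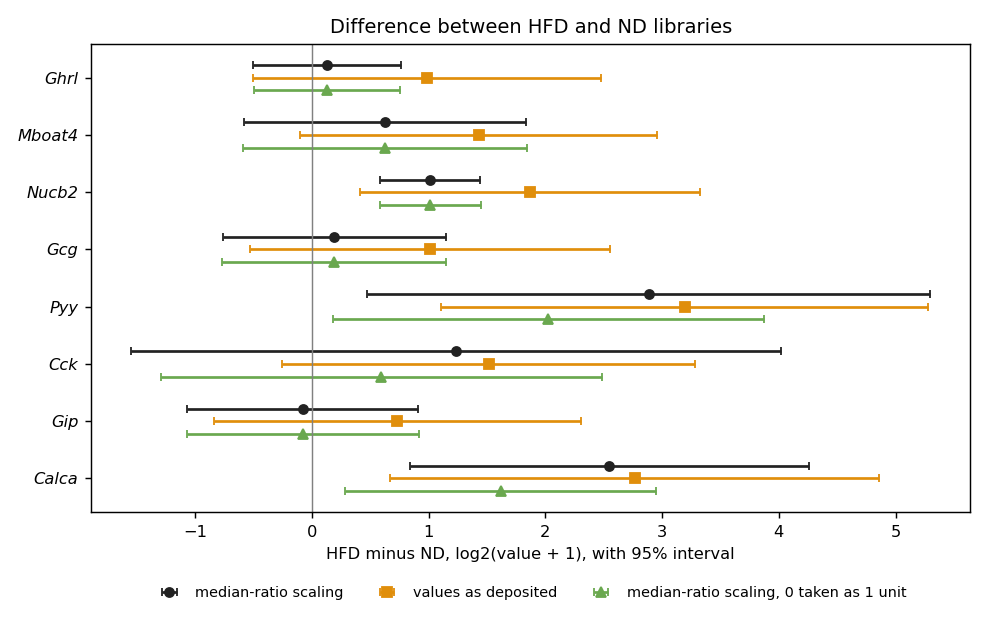
Difference of each tested member between HFD and ND libraries on the log2(value + 1) scale, with its 95% interval from limma, for median-ratio scaling, for the values as deposited and with each 0 taken as 1 deposited unit. On the deposited scale all 8 differences lie to the right of 0; after median-ratio scaling Ghrl, Gcg and Gip lie within 0.20 of 0.

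Per length, the order of the members was led by Ghrl in both groups. Levels per kb of exon, with exon lengths from GENCODE M21, were 14.85 ± 0.42 for Ghrl in HFD and 14.72 ± 0.51 in ND on the log2 scale (SD, n = 4 each). Nucb2 came next, at 8.18 ± 0.22 in HFD and 7.17 ± 0.34 in ND. The third place was Gip's, at 6.52 ± 0.35 in HFD and 6.60 ± 0.87 in ND. In HFD, Mboat4 (5.94 ± 0.22), Gcg (5.87 ± 0.34), Pyy (5.21 ± 0.44) and Cck (4.76 ± 1.08) followed, each with a range that overlapped its neighbour's. In ND the order was Gcg, Mboat4, Cck and Pyy, and every range below that of Ghrl overlapped the next. Calca and Nts were the lowest in both groups.

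Among the 19 receptors of these hormones, 0 passed the threshold in limma, 2 (Cckar and Ramp1) had an unadjusted p under 0.05 (10.6% of all rows did, in either direction), and the median difference was 0.76, against 0.12 for all rows. A share of 2 in 19 is near that of all rows. Cckar, the cholecystokinin receptor of chief cells, was at 11.50 ± 0.31 in HFD and 10.53 ± 0.41 in ND (SD, n = 4 each), a difference of 0.98 ± 0.22 (SE; limma adjusted p = 0.20). The chief cell genes Cblif and Pgc were higher too, by 1.46 ± 0.33 and 0.67 ± 0.22 (SE), and the part of chief cells in the Cckar difference was not tested. Ramp1, a partner of Calcrl in the CGRP receptor, differed by 1.72 ± 0.60 (SE; limma adjusted p = 0.36), and Calcrl itself by 0.43 ± 0.31. Ramp1 was at 8.04 in HFD23 and 5.24 to 6.30 in the other HFD libraries. These overlapped the ND libraries, which ran from 3.94 to 5.42. Ghsr, the ghrelin receptor, was near the floor, at 2.44 ± 0.47 in HFD and 1.96 ± 1.59 in ND (SD, n = 4 each). Glp1r, the receptor of glucagon-like peptide 1, stood at 9.64 ± 0.27 in HFD and 9.72 ± 0.28 in ND. Gipr differed by 0.76 ± 0.54, Gcgr by 0.90 ± 0.75, Cckbr, the gastrin receptor of parietal and enterochromaffin-like cells, by -0.31 ± 0.28, and Ntsr1 by 0.80 ± 0.38 (SE). Of the receptors of peptide YY, Npy1r, Npy2r, Npy4r and Npy5r differed by -0.44 ± 0.89, 0.86 ± 0.73, 1.24 ± 0.86 and 0.85 ± 0.91 (SE). Npy4r was highest in HFD23 (7.54), against 3.24 to 5.95 in the other HFD libraries. Sort1, a sorting receptor that binds neurotensin, was at 12.71 ± 0.06 in HFD and 12.83 ± 0.13 in ND.

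Genes of prohormone processing and ghrelin deacylation also gave no calls. The list of 14 holds processing enzymes, peptidases, the convertase partners Scg5 and Pcsk1n and the candidate deacylases. Of these, 0 passed in limma and 1 (Furin) had an unadjusted p under 0.05, against 10.6% of all rows in either direction. The median difference was 0.32. The deacylase candidates Lypla1, Lypla2, Notum and Bche differed by 0.23 ± 0.25, -0.13 ± 0.10, 1.46 ± 0.97 and -0.05 ± 0.19 (SE). Pcsk1 was at 8.39 ± 0.44 in HFD and 8.08 ± 0.61 in ND, and Pcsk2 at 8.90 ± 0.31 in HFD and 8.54 ± 0.52 in ND (SD, n = 4 each; limma adjusted p = 0.73 and 0.64). Cpe, which removes basic residues, differed by 0.24 ± 0.18 and Pam, the amidating enzyme, by 0.18 ± 0.13 (SE). Furin, a convertase of the general secretory pathway, differed by 0.61 ± 0.23 (SE; limma adjusted p = 0.39).

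Of the other 20 peptide hormone genes, 18 were tested and 0 passed in limma. An unadjusted p under 0.05 was found for 2 (Vip and Npy), against 10.6% of all rows in either direction. Sst was at 12.73 ± 0.51 in HFD and 12.65 ± 0.67 in ND (SD, n = 4 each). Of the 8 pan-endocrine markers 4 had positive and 4 negative differences, and of the 11 endocrine transcription factors 6 were positive and 5 negative; 0 of either list passed in limma or had an unadjusted p under 0.05. Isl1, a homeodomain factor of endocrine cells, was at 9.14 ± 0.25 in HFD and 8.76 ± 0.36 in ND (SD, n = 4 each).

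**Figure D4:**
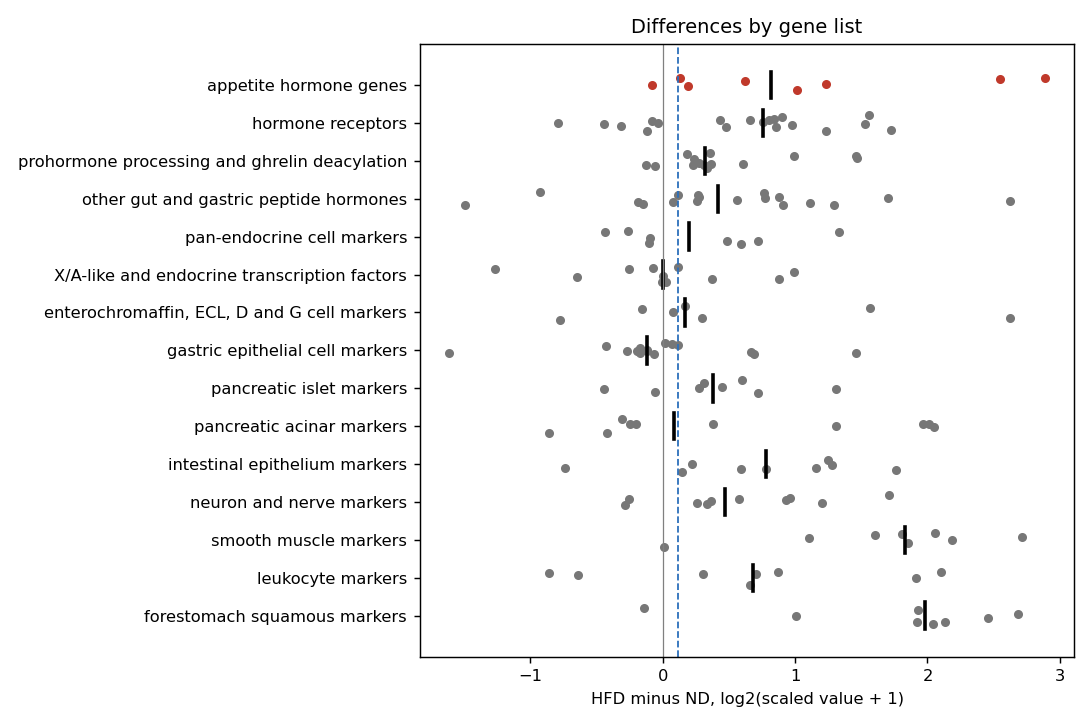
Difference between HFD and ND libraries on the log2(scaled value + 1) scale for every tested gene of each list, with the list's median as a black bar and the median of all 27401 rows, 0.12, as a dashed blue line. The appetite hormone genes (red) spread from -0.08 to 2.88, and the medians of the smooth muscle (1.83) and forestomach (1.98) lists lie far to the right of those of the pan-endocrine markers (0.20) and endocrine transcription factors (0.01).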

How the data were processed

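Total RNA of sorted cells, freed of ribosomal RNA, was sequenced from libraries made with an Ion Total RNA-Seq kit, per the labels' protocols. The submitters' processing notes name mm10 and bedtools 2.17.0 without a role; aligner, annotation and normalization: not given in the sources used here. The authors' deposited values, 1 table of 38920 rows per library, were read as log2 values, since their antilogs sum to 36.9 M in every library. They hold nothing below 0, and a 0 was taken as 0. Symbols came from RefSeq (GRCm38.p6), which matched 32891 of 35720 gene numbers. Depth was estimated from the gap between the 2 most frequent values below 20, taken as 1 read; 43.9% to 62.5% of values below 60 were whole multiples within 0.01, so whole reads were not recovered and no count model was used. Intervals of counts are therefore not given.

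Linear values were divided by median-ratio factors over the 11115 rows above 30 in all 8 libraries. Rows of value 1 or more in at least 4 libraries were tested on log2(value + 1) with limma 3.58.1 (trend and robust, R 4.3.3) after a check on simulated data. Group was the only term. The added 1 shrinks the change of low genes, but taking a 0 as 0 can enlarge it. With each 0 taken as 1 unit, the difference fell from 2.88 to 2.02 for Pyy and from 2.55 to 1.62 for Calca. That of Cck fell from 1.23 to 0.60. Single ratios were tested by exact two-sided permutation over 70 divisions. Alternatives were other scalings, pseudocounts, filters, limma options and leaving out each library. Groups come from the titles. The labels name no separate animals or batches, so p-values measure the spread between these libraries, and ND15.17.18 may be a pool. One table header, that of HFD23, carries a date stamp of its run; no other does, so runs could not be compared. The members and the 14 other gene lists were chosen with earlier results of these data known. All members are named; of the lists, the receptors, main processing enzymes, Chga, Sst and Gast, and per list the 2 genes with the highest level and the 2 with the smallest p could be named, and the 5 genes most like Ghrl. Calcb, Dctn6, Elavl4, Ins1, Ins2, Chgb, Cblif, Cdh1, Alpi, Sis, Cdx2, Cpa1, Scg5, Pcsk1n and the deacylases were named after their values were seen.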

Additional observations from a re-analysis of the deposited data

Results flagged for a closer look

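Within groups of 4 libraries, a value was examined further when its gap to the nearest library exceeded Dixon's 95% critical share of the group's range; 30 groups of values were examined, and chance alone marks about 1 in 20. Nts in ND16, at 1.28, stood apart from the other 3 ND libraries, all listed at 0, on about 2 reads. Rows of 5S ribosomal RNA took 182 ppm of the total in ND15.17.18, against 2.69 to 13.1 in the other ND libraries, and 6.41 ppm in HFD27, against 2.44 to 2.97 in the other HFD libraries. ND15.17.18 is the library on which the differences of Mboat4 and Cck rested most; the part of residual ribosomal RNA in them was not tested.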

How the results depend on the processing

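Under all 19 alternatives 0 members were called. Nucb2, Mboat4, Pyy and Calca kept a positive difference throughout, Nucb2 between 0.90 and 1.87 and Mboat4 between 0.10 and 1.43. Pyy ran from 1.16 to 3.92 and Calca from 0.87 to 3.09, the lowest in both with pseudocount 10. Leaving out 1 library at a time gave -0.074 to 0.28 for Ghrl, -0.096 to 0.59 for Gcg, -0.065 to 2.06 for Cck and -0.47 (without ND15.17.18; -0.24 without HFD22) to 0.16 for Gip. Library weights gave -0.049 for Gcg. Gip was 0.73 as deposited and 0.16 when totals left out the 20 largest rows. Ghrl relative to the pan-endocrine mean ran from -0.33 to 0.026 with 1 library left out and was 0.56 against Chga alone. The count of 3 called rows (1 higher, 2 lower in HFD) became 16 as deposited (13 higher, 3 lower), 1 when totals left out the 20 largest rows, 5 with pseudocount 0.5, 1 without limma's trend and robust options and 21 with library weights (9 higher, 12 lower). It ran from 0 to 4 with 1 library left out, and was 0 without HFD23 and ND15.17.18 together. The cause of these shifts was not tested. That last setting, taking each 0 as 1 unit and leaving out Rimbp2 were chosen after seeing the data. No paired analysis was possible because the groups share no replicate number. Few reads limit Nts, Calca, Pyy and Cck, whose values in ND15.17.18 were all 0. That library was not shallow, at an estimated 53.3 M reads, but had 83.4% of its total in the 20 largest rows. With the filter of 30, Calca was not tested.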
